A study of Mus musculus with 4 samples.

Results

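The myosin chains of slow and fast muscle fibres were followed over 4 Affymetrix MG-U74Av2 arrays of mouse gastrocnemius, the large calf muscle. The 6 genes were Myh7, Myl2 and Myl3 for the slow chains and Myh4, Myl1 and Mylpf for the fast chains, out of 8251 genes with a probe set of their own on the array. They were taken as every probe set that the platform annotation gives to 1 of these symbols alone, which found 9 of 12422 probe sets. No member was without a probe set.

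The groups were adrenalectomized mice taken 1 week after surgery, adrenalectomized mice taken 3 h or 24 h after 0.1 mg of intraperitoneal cortisol, and intact mice. Each group was 1 array that carried the pooled RNA of gastrocnemius muscles from 10 mice, with no replicate. The interval since surgery was stated for the uninjected adrenalectomized mice alone, no vehicle injection was named, and the sources used here gave no strain, sex or age. The adrenal glands make corticosterone, which is the chief glucocorticoid in mice, along with aldosterone and adrenaline. Cortisol binds the same glucocorticoid receptor as corticosterone.

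Myosin is the motor of the thick filament and is built from a pair of heavy chains, each of which carries an essential and a regulatory light chain. Slow, fatigue-resistant fibres use the heavy chain of Myh7 with the essential light chain of Myl3 and the regulatory light chain of Myl2, and the ventricle of the heart uses the same 2 light chain genes. Fast fibres use heavy chains such as that of Myh4 (type IIb, the fastest) with the essential light chain of Myl1 and the regulatory light chain of Mylpf. Mouse gastrocnemius is mostly fast, with slow fibres in its deep part, and it lies against the soleus, which is rich in slow fibres. In pooled tissue, fewer slow fibres in the sample and less slow myosin RNA per fibre cannot be told apart.

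The promoters of the 3 slow chains are shown because these genes were low on the same 2 arrays, and that of Myh4 is shown as a fast gene that was not. Each is a RefSeq window of mouse build GRCm38.p6 from 250 bases before to 50 bases after an annotated start, written 5′ to 3′ on the gene's strand. Capitals mark every match, on either strand, to the E box of the myogenic factors (CANNTG), the MCAT element bound by TEAD factors (CATTCC), the glucocorticoid receptor motif (AGAACA, one side of its usual element), the TATA box (TATAAA) and the MEF2 consensus. The Myh7 window lies at chr14:54994577-54994876 on the minus strand, the Myl2 window at chr5:122092474-122092773 on the plus strand, the Myl3 window at chr9:110763428-110763727 on the plus strand and the Myh4 window at chr11:67237562-67237861 on the plus strand.
Myh7: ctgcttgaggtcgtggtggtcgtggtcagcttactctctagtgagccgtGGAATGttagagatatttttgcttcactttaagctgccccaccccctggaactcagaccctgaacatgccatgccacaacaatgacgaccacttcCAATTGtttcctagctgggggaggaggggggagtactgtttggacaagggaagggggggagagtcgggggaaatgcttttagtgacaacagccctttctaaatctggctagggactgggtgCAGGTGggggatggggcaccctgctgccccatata
Myl2: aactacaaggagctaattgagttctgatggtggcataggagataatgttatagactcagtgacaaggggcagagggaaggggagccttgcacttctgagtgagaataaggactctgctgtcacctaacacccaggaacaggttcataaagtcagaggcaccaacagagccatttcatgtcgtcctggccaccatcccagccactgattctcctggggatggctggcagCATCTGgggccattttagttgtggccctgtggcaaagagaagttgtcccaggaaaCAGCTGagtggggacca
Myl3: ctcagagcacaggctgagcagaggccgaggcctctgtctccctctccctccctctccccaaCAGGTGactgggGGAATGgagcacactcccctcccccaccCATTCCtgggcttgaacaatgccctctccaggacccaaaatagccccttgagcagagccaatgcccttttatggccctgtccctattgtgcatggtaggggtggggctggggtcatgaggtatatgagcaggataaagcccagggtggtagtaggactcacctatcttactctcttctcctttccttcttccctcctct
Myh4: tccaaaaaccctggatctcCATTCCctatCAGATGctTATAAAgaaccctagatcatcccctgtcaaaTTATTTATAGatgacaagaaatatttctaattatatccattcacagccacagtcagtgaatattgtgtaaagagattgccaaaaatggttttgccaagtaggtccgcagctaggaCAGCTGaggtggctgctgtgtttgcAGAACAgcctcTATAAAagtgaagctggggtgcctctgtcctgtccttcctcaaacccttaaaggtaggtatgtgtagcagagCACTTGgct

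The Myh7 window held 1 MCAT element from -201 to -196 and 2 E boxes, and the Myl3 window held 2 MCAT elements, from -177 to -172 and from -149 to -144, and 1 E box. The Myl2 window held 2 E boxes and no other match. In the Myh4 window there were 3 E boxes, 1 MCAT element, 1 glucocorticoid receptor motif from -42 to -37, 3 TATA matches and 1 MEF2 match from -182 to -173. The TATA match from -179 to -174 lay inside that MEF2 match. All 6 genes had a window, and Myh7 and Myl2 each had another one from a second annotated start. The other Myh7 window held 2 E boxes and no MCAT element. The other Myl2 window held 3 E boxes and 1 TATA match, so these contents depend on the start chosen. Over all 8 windows the receptor motif was found once in Myh4 and once in Mylpf, and these letters were not in the windows of Myh7, Myl2, Myl3 and Myl1. Among all 32851 windows of the same length, the E box was present in 72.3%, the receptor motif in 19.0%, the MCAT element in 14.7%, the TATA box in 13.6% and the MEF2 consensus in 3.19%. These matches describe letters in a window and are not sites of measured binding.

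The arrays were alike in overall brightness. Scaled median signals were 197, 194, 199.6 and 189 for adrenalectomized, 3 h, 24 h and intact mice. The share of probe sets at or above the floor of 100, below which signals were set to the floor, lay between 63.0% and 64.4%. Each array went through a fluidics module of its own, so group, mouse pool and module cannot be told apart, and the number of arrays limits the precision. Every ratio below sets 1 array against 1 array, with no replicate check and no test. As the only error measure, 2 probe sets of the same gene were compared over all genes that had them. The SD of a log2 ratio estimated this way was 0.28 for 3 h against adrenalectomized, 0.32 for 24 h against adrenalectomized and 0.24 for adrenalectomized against intact. It holds no variation between mice or pools. As a check of the tissue, all 14 other fast fibre genes of skeletal muscle, among them Tnnt3, Atp2a1 and Actn3, reached the floor on every array. Markers of epidermis and liver were also detected and differed between arrays, as given below.

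The comparison of cortisol with adrenalectomy alone asked which muscle transcripts differ after the hormone is given back. All 3 slow chains were 2.66-fold to 4.05-fold lower on both cortisol arrays by their brightest probe sets. All 3 fast chains stayed within 1.13-fold by theirs. A second Myh4 probe set was higher on both, by at least 2.09-fold at 3 h and at least 1.96-fold at 24 h. The bright Myh4 and Myl1 signals lay near the top of the signal range, where real differences can be compressed. By the brightest probe sets the slow heavy chain had the largest difference of the 3, and the slow light chains were close to each other. With the mean of both Myh7 probe sets, 1 of them below the floor throughout, the heavy chain had the smallest. The low level at 3 h was also found at 24 h. Both comparisons use the same adrenalectomized array, so they are not independent of each other.

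Myh7, the slow heavy chain, had signals of 9419.7 after adrenalectomy alone, 2342 at 3 h, 2325 at 24 h and 8238 in intact mice. The cortisol arrays were the lower pair, and the 2 values within each pair lay close together. The 3 h signal was 24.9% and the 24 h signal 24.7% of the adrenalectomized one, which is 4.02-fold and 4.05-fold lower, with log2 ratios of -2.01 and -2.02. Among genes that reached the floor on 1 or both arrays, Myh7 held place 5 from the lowest of 6168 at 3 h and place 7 of 6228 at 24 h.

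Myl2, which encodes the regulatory light chain that is phosphorylated to tune the slow motor, had signals of 13850.2 after adrenalectomy alone, 4890.1 at 3 h, 4627 at 24 h and 12949 in intact mice. It was 2.83-fold lower at 3 h (log2 ratio -1.50) and 2.99-fold lower at 24 h (log2 ratio -1.58). Myl3, which encodes the essential light chain that supports the lever arm of the slow motor, had signals of 8959.6, 3362, 3066 and 7845 in the same order of groups. It was 2.66-fold lower at 3 h (log2 ratio -1.41) and 2.92-fold lower at 24 h (log2 ratio -1.55). In both genes the 2 cortisol arrays were low and the other 2 high.

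Myh4, the fast heavy chain, had signals of 34919 after adrenalectomy alone, 33149 at 3 h, 34187 at 24 h and 33475 in intact mice. Its log2 ratios were -0.08 at 3 h and -0.03 at 24 h against adrenalectomy. Myl1, the fast essential light chain, had signals of 34196 after adrenalectomy alone, 33121 at 3 h, 35958 at 24 h and 34005 in intact mice. Its log2 ratios against adrenalectomy were -0.05 at 3 h and 0.07 at 24 h. Neither gene showed a group that stood apart, but both lay at 94.9% or more of the highest signal of their array, where real differences can be compressed.

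Mylpf, the fast regulatory light chain, lay far from that limit, at 7.97% of the highest signal or less. It had signals of 2727 after adrenalectomy alone, 2421 at 3 h, 2871 at 24 h and 2662 in intact mice. The log2 ratio was -0.17 at 3 h and 0.07 at 24 h, both within the error SD. A second Mylpf probe set had signals of 2497, 2668, 2577 and 2633 in the same order, and the highest and lowest arrays were not the same ones in the 2 sets.

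**Figure D1:**
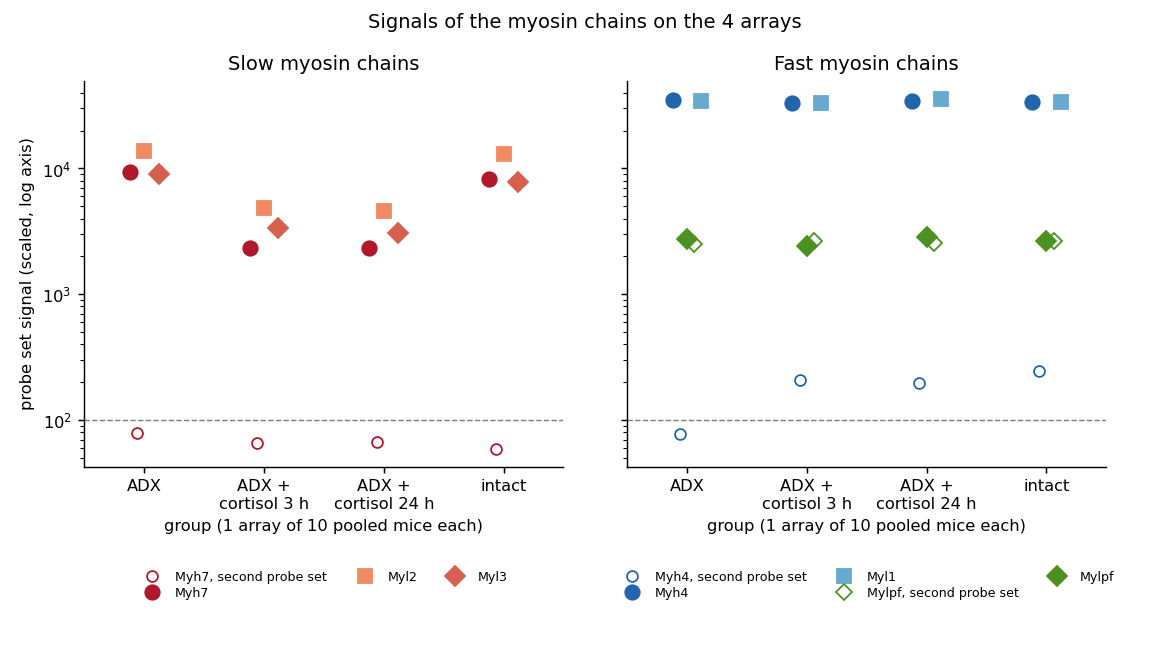
Probe set signals (scaled, log axis) of the slow chains (left) and the fast chains (right) for adrenalectomized mice (ADX), ADX mice 3 h and 24 h after cortisol, and intact mice, 1 array of 10 pooled mice each. Filled symbols are the brightest probe set of a gene, open symbols its second one, and the dashed line is the floor of 100. The slow chains are lower on both cortisol arrays, with Myh7 at 2342 and 2325 against 9419.7 in ADX mice, and the bright fast probe sets are level.

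Counted at 2-fold, 3 of the 6 chains were lower at 3 h, where 1.17% of 6168 genes were lower, and the same 3 were lower at 24 h, where 1.06% of 6228 genes were lower. No chain was 2-fold higher in either comparison, where 1.86% and 1.27% of genes were. The mean log2 ratio of the slow chains was -1.64 at 3 h and that of the fast chains -0.10. The difference of -1.54 is a 2.92-fold smaller ratio of slow to fast signal, and multiplying an array by a constant does not alter it. Because Myh4 and Myl1 lay near the top of the signal range, the fast mean, and with it the size of this difference, is uncertain. At 24 h the means were -1.72 for the slow and 0.04 for the fast chains, a difference of -1.75 or 3.37-fold. Over all genes the median log2 ratio was -0.02 at 3 h and 0.01 at 24 h.

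Within the slow group, the log2 ratio of Myh7 minus that of Myl2 was -0.51 and minus that of Myl3 was -0.59 at 3 h, larger in size than the SD of 0.40 for such a difference. At 24 h these differences were -0.44 and -0.47, about the SD of 0.45 in size. The log2 ratio of Myl3 minus that of Myl2 was 0.09 at 3 h and 0.03 at 24 h. With the light chains alone the difference between slow and fast was -1.35 at 3 h and -1.64 at 24 h, and with the heavy chains alone it was -1.93 and -1.99. The heavy chain value is Myh7 minus Myh4 by their brightest probe sets, with Myh4 near the top of the range and its second probe set higher on the cortisol arrays. Against Mylpf, the fast chain away from that limit, the slow chains had log2 ratios of -1.41 or lower where Mylpf had -0.17 at 3 h.

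The probe set of Myh7 has a name ending that Affymetrix gives to probes common to a gene family, so its signal may include other myosin heavy chain transcripts. The probe set of Myh6, the neighbouring cardiac heavy chain gene, stayed below the floor on every array, at 69.4 or less. Another Myh7 probe set, with the same kind of suffix, had signals of 78.7, 65.3, 67.4 and 58.6 for adrenalectomized, 3 h, 24 h and intact mice, all below the floor, so it gave no measurement of a difference. A second Myh4 probe set, with a special name ending of another kind (_r_at), had signals of 76.7, 209, 196 and 244 in the same order. It did not follow the bright one. By that probe set Myh4 was at least 2.09-fold higher at 3 h against adrenalectomy, and at least 2.44-fold lower after adrenalectomy than in intact mice. Averaging both probe sets gave Myh7 log2 ratios of -1.004 at 3 h and -1.01 at 24 h, and Myh4 log2 ratios of 0.49 and 0.47. Myl1, Myl2 and Myl3 had 1 probe set each, with no such suffix. The bright probe sets of Myh4 and Mylpf had none either, and the second Mylpf probe set had the same suffix as those of Myh7.

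**Figure D2:**
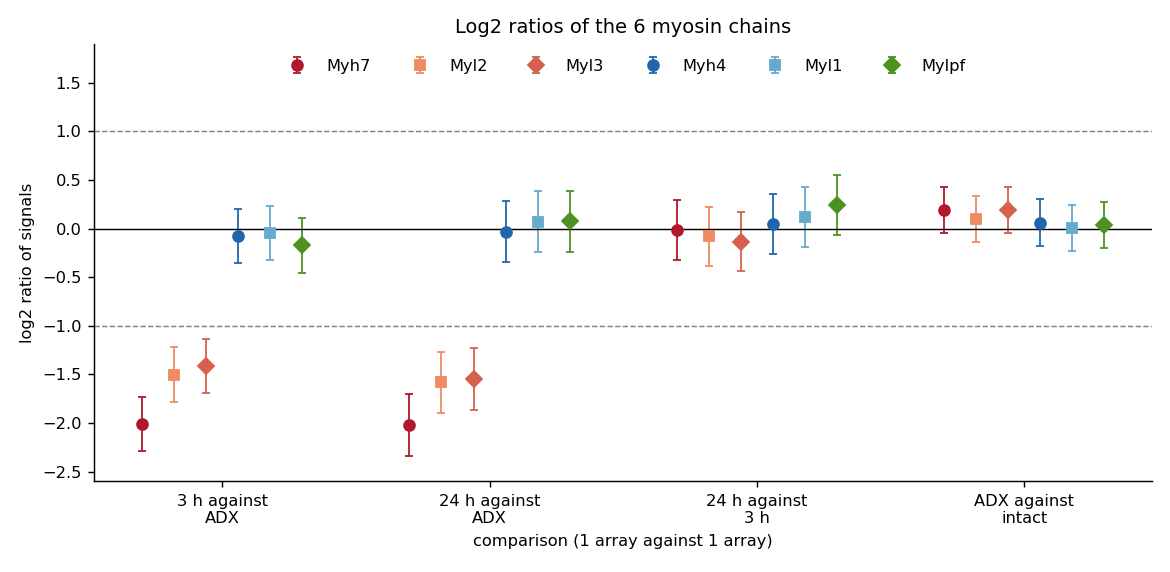
Log2 ratios of the signals of the 6 chains in 4 comparisons, each of 1 array against 1 array, with ADX for adrenalectomized mice. Bars are plus and minus the error SD estimated from genes with 2 probe sets, and dashed lines mark 2-fold. Myh7, Myl2 and Myl3 lie between -1.41 and -2.02 on both cortisol arrays against ADX, and the other points lie between -0.17 and 0.25.

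Between the cortisol arrays the chains differed little. For 24 h against 3 h the log2 ratios of the slow chains were -0.01 for Myh7, -0.08 for Myl2 and -0.13 for Myl3. Those of the fast chains were 0.04 for Myh4, 0.12 for Myl1 and 0.25 for Mylpf. None of the 6 passed 2-fold, against 3.28% of 6229 genes, and all 6 were within the error SD of 0.31. With scaling to ribosomal protein genes all 6 were positive, between 0.20 and 0.58, with the median of all genes at 0.35. Under quantile normalization Myh7 was at 0.0075 and Myh4 at -0.05, so the signs of these small ratios were not settled.

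Adrenalectomy alone was set against intact mice to ask what loss of the adrenals does to these transcripts. The slow chains were slightly higher after adrenalectomy, at 1.14-fold for Myh7 and Myl3 and 1.07-fold for Myl2. Log2 ratios were 0.06 for Myh4, 0.01 for Myl1 and 0.03 for Mylpf, and over the other scalings and probe set choices those of the 3 fast chains lay between -0.61 and 0.07. By the brightest probe sets none passed 2-fold, where 0.72% of 6112 genes did, and all 6 ratios were within the error SD. The -0.61, from the mean of both Myh4 probe sets, was not, and the second Myh4 probe set was past 2-fold, as given above. The difference between slow and fast chains was 0.13.

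Against intact mice, the slow chains were low on the same 2 cortisol arrays. Myh7 was 3.52-fold lower at 3 h and 3.54-fold lower at 24 h. Myl2 was 2.65-fold and 2.80-fold lower, and Myl3 was 2.33-fold and 2.56-fold lower, at 3 h and 24 h. The 3 fast chains had log2 ratios between -0.14 and -0.01 at 3 h and between 0.03 and 0.11 at 24 h. The 3 chains past 2-fold compare with 1.04% of 6162 genes that were 2-fold lower at 3 h and 1.01% of 6219 at 24 h. Averaging the probe sets of Myh7 gave -0.91 on the log2 scale at both times, short of 2-fold.

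Bright transcripts were counted separately. A minimum of 2000 for the mean signal over the 4 arrays, chosen after the values were seen, left 735 genes. Of these, 9 were at least 2-fold lower at 3 h than after adrenalectomy alone, a share near the 1.17% of all genes. Another 7 were higher (Cebpb, Cebpd, Gpcpd1, Mt2, Nr4a1, Ppp1r3c and Rhob), where 1.86% of all genes were. Of the 9 lower genes, 8 were the slow chains, the slow troponin genes Tnnt1, Tnni1 and Tnnc1, the slow tropomyosin gene Tpm3 and the calcium pump gene Atp2a2. The other was Nr1d1, a repressor of the circadian clock. At 24 h, 9 were lower again, the same 8 and Pdk4, a kinase gene that restrains glucose oxidation. Another 2 were higher (Gpcpd1 and Med27). Over all genes, 1.06% were lower and 1.27% higher at 24 h. Of all 8251 genes, 14 were at least 2-fold lower on both cortisol arrays against both the adrenalectomized and the intact array. They were these 8, the liver genes Alb, Mup3, Serpina1b and Serpina1e, the phosphatase gene Ptpru and the transcription factor gene Zbtb17. Among them, Myh7, Atp2a2, Tnnt1 and all of the liver genes but Alb were read by probe sets with the shared-probe suffix.

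**Figure D3:**
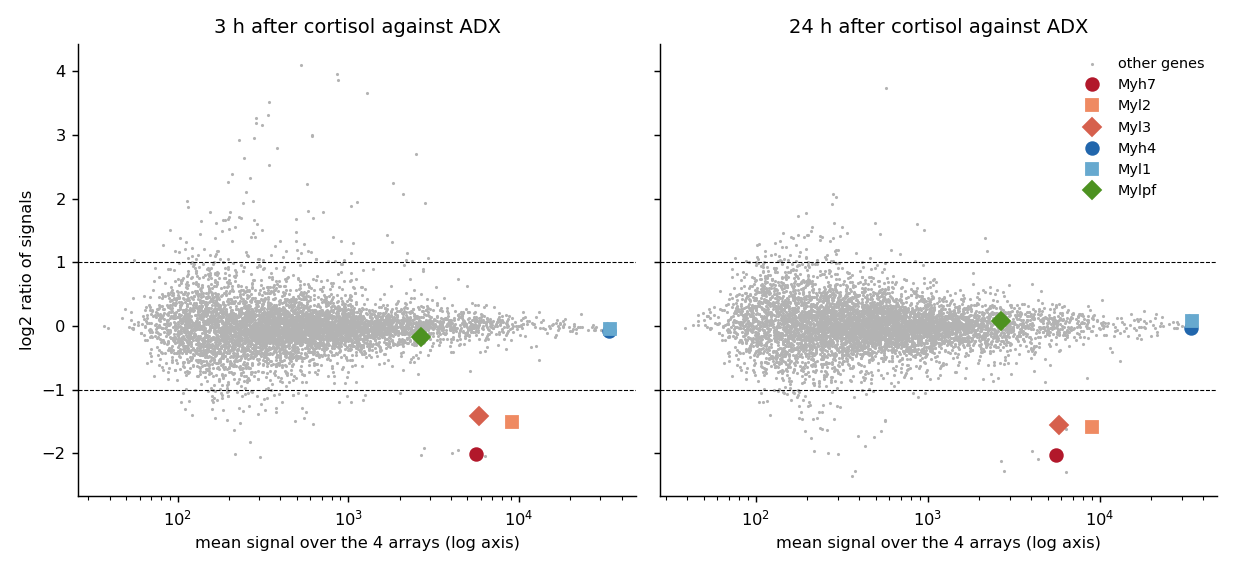
Log2 ratio against mean signal over the 4 arrays (log axis) for every gene at or above the floor on 1 or both arrays, at 3 h (left) and 24 h (right) after cortisol against adrenalectomized mice (ADX). Dashed lines mark 2-fold. Myh7 at -2.01 and -2.02, Myl2 at -1.50 and -1.58 and Myl3 at -1.41 and -1.55 lie below nearly all genes of like brightness, and the fast chains lie near 0.

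The genes with a pattern nearest to that of Myh7 were sought among 5452 genes at or above the floor on all 4 arrays, by the root mean square difference of log2 signals centred on their mean over the arrays. The 8 nearest were Atp2a2 (0.042), Tnni1 (0.065), Tpm3 (0.082), Tnnt1 (0.11), Tnnc1 (0.13), Zbtb17 (0.16), Myl2 (0.22) and Serpina1e (0.24), and Myl3 followed in place 9 (0.27). With 4 arrays this is a description of 4 values per gene. Atp2a2, Tnnt1 and Serpina1e, like Myh7, were read by probe sets with the shared-probe suffix. Atp2a2, which encodes the pump that refills the calcium store of slow fibres, had signals of 4545 after adrenalectomy alone, 1119 at 3 h, 1045 at 24 h and 3971 in intact mice. Zbtb17, which encodes a zinc finger partner of Myc, had signals of 561, 134, 139 and 379 in the same order. The fast chains were far from Myh7, at differences of 0.95 to 0.97 and from place 2304 of the list onward. Myl2 and Myl3 were each other's nearest gene, at 0.066. The lists of 8 nearest genes for Myh7, Myl2 and Myl3 shared 2 genes, Tnni1 and Zbtb17.

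**Figure D4:**
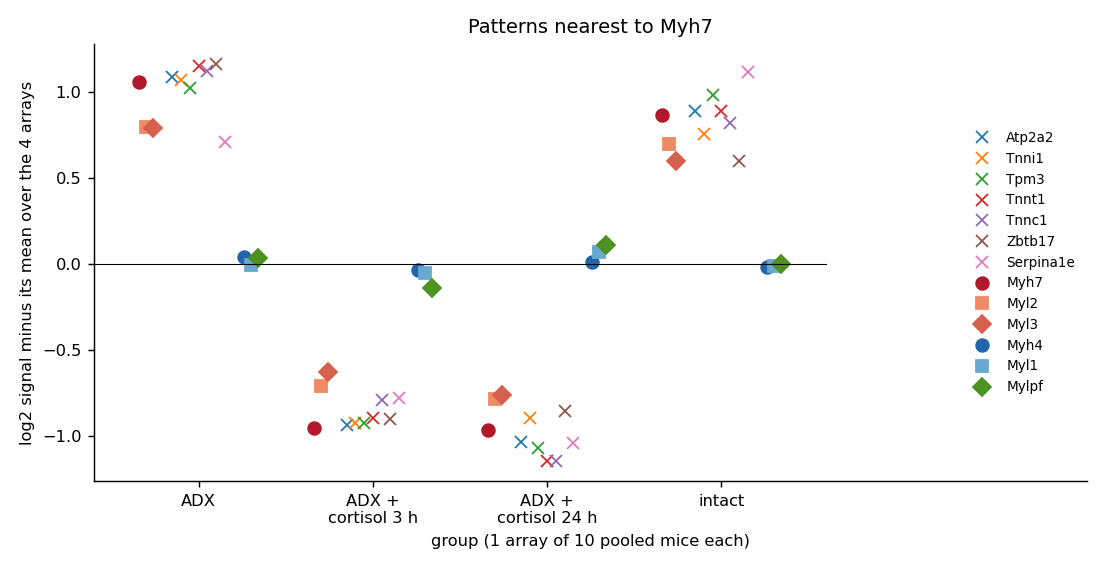
Log2 signal minus its mean over the 4 arrays for the 6 chains (filled symbols) and the 7 genes other than Myl2 that are nearest to Myh7 (crosses), in adrenalectomized mice (ADX), ADX mice 3 h and 24 h after cortisol, and intact mice. The slow chains and the crosses are low on both cortisol arrays, and the fast chains stay near 0 on all 4.

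Other genes of slow fibres divided into those that were several-fold lower and those that were not. Of 10 on the array, 5 were at least 2-fold lower at 3 h and 5 at 24 h, where 1.17% and 1.06% of all genes were. The list medians were -1.22 and -1.26. The 5 were Tnnt1, Tnni1, Tnnc1, Tpm3 and Atp2a2 at both times, from 3.76-fold to 4.11-fold lower at 3 h and from 3.90-fold to 4.89-fold lower at 24 h. Tnnt1 and Atp2a2 were read by probe sets with the shared-probe suffix. Myoglobin, the oxygen store of oxidative fibres, was 1.45-fold lower at 3 h and 1.46-fold lower at 24 h by the Mb probe set. The calsequestrin gene Casq2, the muscle LIM protein gene Csrp3 and the stretch-responsive gene Ankrd2 had log2 ratios between -0.48 and -0.10 at 3 h and between -0.29 and 0.43 at 24 h. The pump inhibitor gene Sln was at least 1.30-fold lower at 3 h, where its signal was below the floor, and had a log2 ratio of -0.02 at 24 h. These names outside the 5 were given after the values were seen. Of 14 other fast fibre genes, 0 passed 2-fold in either direction at 3 h or 24 h, with medians of -0.02 and 0.03. Over all genes, 1.86% were 2-fold higher and 1.17% lower at 3 h, so 0 of 14 is near those shares. Several of the 14, such as Atp2a1 at 34676.5 and Tnnt3 at 31871 after adrenalectomy alone, lay near the top of the signal range. There real differences can be compressed. Others, such as Tpm1 at 751 and Tnni2 at 2293, lay far below it. Among the 14, the largest log2 ratios in size at 3 h were -0.34 for the tropomyosin gene Tpm1 and 0.32 for Gpd1, a glycerol phosphate enzyme gene.

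Other myosin chains and the partners of myosin were counted in the same way. Among 7 other striated muscle myosin genes on the array, 3 reached the floor and 0 passed 2-fold at 3 h or 24 h against adrenalectomy, or after adrenalectomy against intact mice. Myh1, the type IIx fast heavy chain gene, had signals of 14557 after adrenalectomy alone, 14048 at 3 h, 14258 at 24 h and 14281 in intact mice. The neonatal heavy chain gene Myh8 had a log2 ratio of -0.39 at 3 h and the embryonic and atrial light chain gene Myl4 one of -0.15. Myh2, the type IIa gene of fast oxidative fibres, was below the floor on all 4 arrays, as were Myh3, Myh6 and Myl7. Of 6 genes listed here as smooth muscle and non-muscle myosin chains and at the floor or above, 0 passed 2-fold in these comparisons. Whether any of them is also used in slow fibres was not examined. The largest log2 ratios in size at 3 h were -0.57 for Myl6b and -0.35 for Myl12b. Myl6b was 1.49-fold lower at 3 h and 1.25-fold lower at 24 h than after adrenalectomy alone. Myl12b, a regulatory light chain of non-muscle myosin, was also 1.94-fold higher after adrenalectomy than in intact mice and 1.65-fold lower at 24 h than after adrenalectomy alone, values singled out after they were seen. Of 8 genes that bind, assemble or phosphorylate myosin, 0 passed 2-fold in these comparisons, with medians of 0.01 at 3 h and -0.08 at 24 h. At 3 h, 1.86% of all genes were 2-fold higher and 1.17% lower, so counts of 0 in lists this short carry little information. The thick filament binding protein genes Mybpc3 and Mybph had log2 ratios of -0.47 and 0.41 at 3 h. For 24 h against 3 h that of Mybph was -1.21. Smyd1, which encodes a methyltransferase of thick filament assembly, was 1.60-fold lower after adrenalectomy than in intact mice and 1.97-fold lower at 3 h than in intact mice. These values of Mybph and Smyd1 were singled out after they were seen.

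Among regulators that set fibre type, of 26 tested, 1 was 2-fold lower at 3 h and 0 at 24 h, where 1.17% and 1.06% of all genes were. None was 2-fold higher, where 1.86% and 1.27% of all genes were, and the medians were -0.13 and -0.09. The 1 lower gene was Myod1, a myogenic factor gene favoured in fast fibres, with signals of 440.1 at 3 h against 1008 after adrenalectomy alone, a log2 ratio of -1.20. At 24 h its log2 ratio was -0.09. The 3 others at least 1.5-fold lower at 3 h, named after their values were seen, were Six4 (log2 ratio -0.85), Tead4 (-0.70) and Ppargc1a, at least 1.87-fold lower with its 3 h signal below the floor. They compare with 4.75% of all genes past 1.5-fold lower. The calcineurin subunit genes Ppp3ca, Ppp3cb and Ppp3r1, which relay the calcium signal of slow nerve activity, had log2 ratios between -0.08 and 0.05 at 3 h, and their inhibitor gene Rcan1 had -0.49. Of the Mef2 genes, which encode partners of the myogenic factors, Mef2a, Mef2c and Mef2d lay between -0.07 and 0.06, and Mef2b had -0.40 at 3 h and -0.35 at 24 h. These 8 were also named after their values were seen.

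Markers of epidermis and liver also differed between the arrays. Epidermis and hair follicle markers, 17 of 18 on the array, summed to signals of 1790.1 after adrenalectomy alone, 13181 at 3 h, 3695 at 24 h and 1809 in intact mice. Of 13 tested, 11 were at least 2-fold higher at 3 h and 7 at 24 h, where 1.86% and 1.27% of all genes were. Only 7 of the list reached the floor after adrenalectomy alone, against 13 on each cortisol array. Krt27, Krtap8-1, Dsp, Flg, Krtdap and Perp were tested only because they reached it after cortisol. These counts are therefore not free of the difference they describe. Krt5, Krt14, Krt15 and Dsc3 did not reach the floor on any array. Hepatocyte markers, 12 of 14 on the array, summed to 3976, 2762, 2130.3 and 5795 in the same order. Of 8 tested, 4 were at least 2-fold lower at 3 h and 4 at 24 h, where 1.17% and 1.06% of all genes were. The 4 were Alb, Mup3, Serpina1b and Serpina1e at both times. All but Alb were read by probe sets with the shared-probe suffix, so they may not be separate measurements. Fgb, Fgg and Ambp were below the floor throughout, and Hp had log2 ratios of 0.49 and 0.24. Their part in the slow chain result was not tested, nor was that of differences in dissection.

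Heart markers were examined because the ventricle also uses Myl2 and Myl3. Of 11 on the array, Nppb, Tnnt2, Myh6, Myl7, Ryr2 and Nkx2-5 were below the floor on all 4 arrays. Of the 4 or 5 tested, 0 passed 2-fold in the 3 comparisons of 3 h and 24 h with adrenalectomy and of adrenalectomy with intact mice. The list summed to 12079.5 after adrenalectomy alone, 13631 at 3 h, 11048 at 24 h and 10431 in intact mice, of which Actc1, read by a shared probe set, made up most. Nppa, the atrial peptide gene, had signals of 400 after adrenalectomy alone, 225 at 3 h, 307 at 24 h and 258 in intact mice. Smooth muscle markers (6 tested) and adipocyte markers (6 or 7 tested) had 0 members past 2-fold in the same comparisons, with medians at 3 h of -0.01 and 0.01. Over all genes 1.86% were 2-fold higher and 1.17% lower at 3 h, so counts of 0 or 1 in lists this short carry little information. Among 8 embryonic and regenerating muscle markers, 1 was 2-fold higher at 3 h, the fetal receptor subunit gene Chrng, at least 2.30-fold, with signals of 230 at 3 h, below the floor after adrenalectomy alone and 194 in intact mice.

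**Figure D5:**
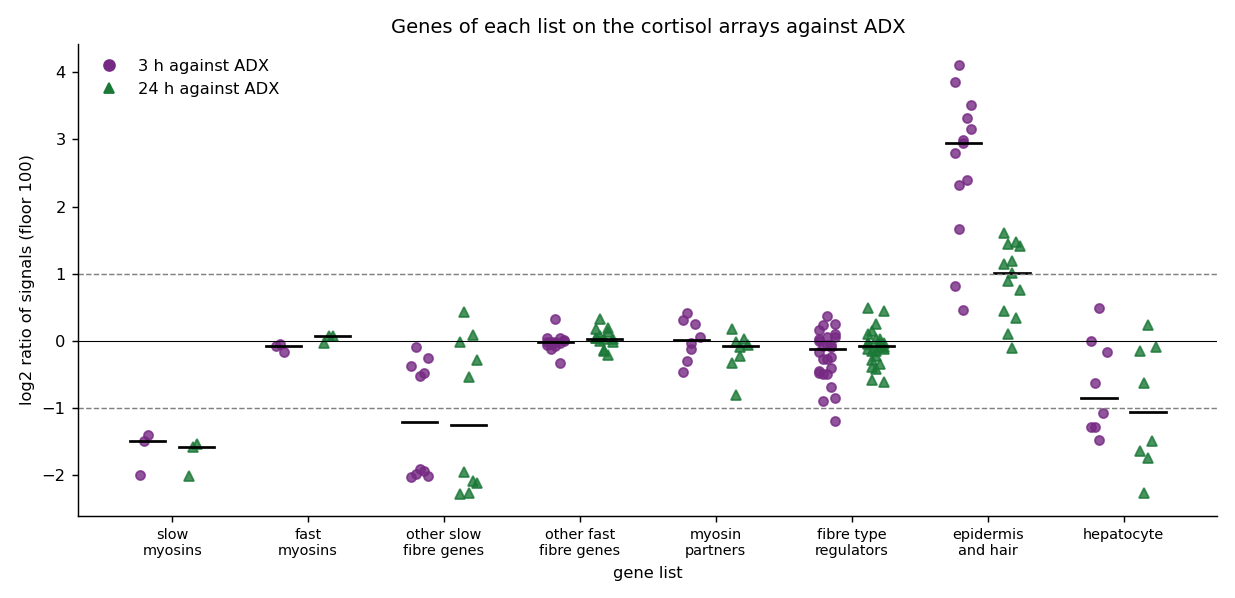
Log2 ratios (floor 100) of the slow and fast chains and of the tested genes of 6 other lists, at 3 h (circles) and 24 h (triangles) after cortisol against adrenalectomized mice (ADX). Each point is a gene, black bars are medians and dashed lines mark 2-fold. The slow chains sit with 5 of the other slow fibre genes below -1. The fast lists lie near 0, with several of their genes near the top of the signal range. Epidermis and hair markers have medians of at least 2.94 at 3 h and at least 1.01 at 24 h, with several of them below the floor in ADX mice.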

How the data were processed

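The authors deposited linear probe set intensity signals, which per the labels came from MAS 5.0 image analysis, and the values show that they had scaled each array to a trimmed mean near 500. The sources used here gave no other settings. The deposited instrument files gave other information only, namely 1 chip lot and 4 fluidics modules. Of 12488 probe sets, 66 controls were left out, 20 of which had no value on the 3 h array. Each array was rescaled to a trimmed mean of 500 with 2% left out at each end, signals below 100 were set to 100 and log2 ratios were taken in Python 3.11.15 with pandas 2.3.3 and NumPy 2.4.6. The platform annotation gave 10833 probe sets 1 symbol, 396 several and 1193 none, and 10817 of the 10833 matched the GRCm38.p6 gene table by gene ID, with 0 symbols changed. For each gene, the brightest probe set by mean over the arrays was used. With 1 array per group there was no test, and a gene was counted at a log2 ratio of at least 1 in size. For the error SD, 2 probe sets of a gene that reached the floor were subtracted on the log2 scale, and the SD over genes was divided by the square root of 2. Named genes were all members, list genes past 2-fold in a comparison with adrenalectomy or of adrenalectomy with intact mice (of lists with none, the 2 largest ratios at 3 h), and the 8 nearest in pattern. The ratio calculation was tested on simulated data. The members and the lists were chosen with earlier results of these data known. Alternatives were other floors, scalings, probe set choices and subsets of the chains.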

Additional observations from a re-analysis of the deposited data

How the results depend on the processing

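Of 318 member ratios recomputed under other floors, scalings and probe set choices, 305 moved by less than the error SD, 13 moved by more, and 0 of those past 2-fold changed sign. Many of the 305 could not have moved. The brightest probe sets of the members had signals of 2325 or more on every array, so another floor could not alter their ratios. Nor could a gene with 1 probe set change under another probe set choice. The 13 came from scaling to ribosomal protein probe sets in 24 h against 3 h and from averaging the probe sets of Myh7 and Myh4. Under that averaging Myh7 had log2 ratios of -0.91 at 3 h and -0.91 at 24 h against intact mice, short of 2-fold, and the difference between slow and fast chains was -1.11 at 3 h and -1.24 at 24 h, because the dim second probe sets entered the mean. With the heavy chains alone that difference was -1.93 at 3 h against adrenalectomized mice and -1.80 at 3 h against intact mice. Leaving out every probe set with a name ending in _s_at, _f_at, _g_at, _r_at or _i_at, shared-probe or other, removed Myh7 and left 2 chains past 2-fold. Scaling to ribosomal protein probe sets put the median of all genes at -0.24 for 3 h and 0.11 for 24 h against adrenalectomized mice and at -0.23 and 0.13 against intact mice, with Myh7 at -2.23 and -1.91 in the first 2. The counts over all genes depend on the floor. In the order adrenalectomized against intact, 3 h and 24 h against adrenalectomized, 24 h against 3 h, and 24 h and 3 h against intact, they were 44, 187, 145, 204, 132 and 177. A floor of 50 gave 193, 371, 354, 411, 348 and 370, a floor of 200 gave 11, 102, 43, 89, 51 and 101, and no floor gave 778, 924, 956, 956, 909 and 928. Scaling to ribosomal protein probe sets changed how many were higher, to 72 of 199 against 115 of 187 for 3 h and 117 of 176 against 79 of 145 for 24 h against adrenalectomized, 229 of 304 against 82 of 204 for 24 h against 3 h, and 106 of 169 against 69 of 132 for 24 h and 73 of 180 against 113 of 177 for 3 h against intact. Quantile normalization gave 50 of 122 higher for 24 h against intact. No paired analysis was possible because each group had 1 array. The number of arrays limits every value, and Myh4 and Myl1 lay near the top of the signal range, as did several other fast fibre genes.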
